A study of Mus musculus with 9 samples.

Results

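The mouse collagen genes were followed in aggregates of mammary epithelial cells made of basal cells alone, of luminal cells alone, or of a mixture of both. They were taken as every gene name of the form Col, a number, a and a number, and 44 of the 54456 names in the count table matched. The 44 genes encode the chains of 27 collagen types and were sorted into 9 classes by how their chains assemble, and 34 of them had enough counts to be tested. All aggregates came from wild-type (WT) mice and from cells purified by flow cytometry. They were set in 80% Matrigel, a gel of basement membrane proteins. Heparin sulfate beads, 100 to 150 µm wide and loaded with FGF10, a growth factor that attracts mammary epithelium, lay close by. The basal-only, luminal-only and mixed groups had 3 libraries each, and the mixture was set up with 50% of cells of each kind. Migration had run for 56 h by the treatment label and for 55 h by the titles. FGF10 was present in every group, so no value measures what FGF10 itself does, and collagen protein supplied by the Matrigel is outside what RNA counts see. The stated question was which role each cell kind plays when such aggregates migrate together, read from their mRNA.

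Collagens are secreted or membrane-bound proteins in which a trio of chains winds into a triple helix. Type IV forms the sheet of the basement membrane that separates mammary epithelium from stroma. Types VII, XVII and XVIII belong to the same zone as anchoring fibrils, hemidesmosome proteins and basement membrane proteoglycans. Types I, III, V and XI build fibrils, type VI builds beaded filaments, and the FACIT collagens (fibril-associated collagens with interrupted triple helices) decorate fibrils. In the mammary gland basal, or myoepithelial, cells sit on the basement membrane and are known as a source of its components, while stromal fibroblasts are the textbook source of fibril collagens.

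Several type IV chains that assemble with each other are encoded head to head, and the sequences between or before their starts are shown because these pairs behaved differently. In the deposited mm39 coordinates Col4a1 (chromosome 8, 11248423 to 11362826, minus strand) and Col4a2 (chromosome 8, 11362805 to 11499287, plus strand) overlap by 22 bases at their 5′ ends. The RefSeq starts of build GRCm38.p6 are also 22 bases apart. Col4a6 (chromosome X, 139948399 to 140257072, minus strand) and Col4a5 (chromosome X, 140258381 to 140472230, plus strand) lie 1308 bases apart in the deposited table. The pair Col4a4 and Col4a3 on chromosome 1 has 71 bases between its genes. The first line gives the plus strand between the Col4a1 and Col4a2 starts (chr8:11312805-11312826), all in capitals because the whole stretch is shared. The other lines give the 250 bases before the start on each gene's own strand, from RefSeq (GRCm38.p6). They cover Col4a6 (chrX:141474077-141474326, minus), Col4a5 (chrX:141475169-141475418, plus), Col11a1 (chr3:114030290-114030539, plus) and Col8a1 (chr16:57754738-57754987, minus). For Col11a1 and Col8a1 all mixed libraries lay above all basal and luminal ones, but neither gene passed jointly against both pure groups. Col12a1, which did, had no such window. Capitals in the lines of 250 bases mark every match, on either strand, to the TATA box (TATAAA), the CCAAT box (CCAAT), the GC box (GGGCGG), the AP-1 motif (TGANTCA) or the TEAD motif (GGAATG).
Col4a1/Col4a2: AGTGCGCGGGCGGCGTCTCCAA
Col4a6: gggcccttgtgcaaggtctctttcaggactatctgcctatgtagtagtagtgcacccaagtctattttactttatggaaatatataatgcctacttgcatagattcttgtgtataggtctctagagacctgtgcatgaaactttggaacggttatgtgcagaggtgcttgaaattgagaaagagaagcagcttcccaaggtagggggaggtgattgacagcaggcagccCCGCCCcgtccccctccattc
Col4a5: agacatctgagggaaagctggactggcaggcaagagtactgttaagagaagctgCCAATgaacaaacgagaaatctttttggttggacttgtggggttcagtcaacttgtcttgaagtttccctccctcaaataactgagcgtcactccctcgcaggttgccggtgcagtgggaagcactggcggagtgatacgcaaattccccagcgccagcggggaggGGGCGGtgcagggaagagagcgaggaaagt
Col11a1: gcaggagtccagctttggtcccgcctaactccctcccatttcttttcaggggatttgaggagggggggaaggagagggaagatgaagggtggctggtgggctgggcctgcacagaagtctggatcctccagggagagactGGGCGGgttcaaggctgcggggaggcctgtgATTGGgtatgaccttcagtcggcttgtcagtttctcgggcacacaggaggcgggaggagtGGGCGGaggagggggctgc
Col8a1: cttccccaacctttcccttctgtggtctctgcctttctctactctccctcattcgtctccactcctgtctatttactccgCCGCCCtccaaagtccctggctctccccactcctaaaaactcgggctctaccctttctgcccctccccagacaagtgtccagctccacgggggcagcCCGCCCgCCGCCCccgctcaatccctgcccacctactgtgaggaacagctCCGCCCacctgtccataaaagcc
Of the 44 genes 35 had such a window. The matches shown are GC boxes and CCAAT boxes, which occur in 32.7% and 33.8% of all 32851 windows of this length. Col8a1 had 4 GC boxes and Col11a1 had 2 GC boxes and 1 CCAAT box. Col8a2, which passed in no comparison, also had 4 GC boxes. A match is a run of letters and not a measured binding site. The letters of the TATA box (in 12.4% of windows), the AP-1 motif (6.75%) and the TEAD motif (12.6%) did not occur in these 4 windows. The 22 bases were not part of this search, and the line printed for them holds the GC box letters GGGCGG.

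The libraries held 15585324 to 19164405 counts, so that 3 counts correspond to 0.152 to 0.187 CPM, a count scaled to a common library size with the trimmed mean of M-values. Reads carried no molecular identifiers, so such limits reflect counting error alone. Separate mice or cultures are not named for libraries of the same group, and the p-values measure only the spread between these libraries, which may be technical. The column names of the count table carry 3 prefixes that cut across the groups. Series A holds the 3 mixed libraries and basal 2, series B holds basal 1, basal 3 and luminal 1, and series C holds luminal 2 and 3, and the labels do not say what a prefix stands for. A fit with this series as a term rests on luminal 1, basal 1 and basal 3 for luminal minus basal, and on basal 2 and the mixed libraries for mixed minus basal. Mixed and luminal libraries are then compared only by way of basal. Its values are given beside the collagen calls it ended, and for the other genes of the pathway as counts. The summed level of 8 basal markers was 9323 to 10628 CPM in basal, 1400 to 2754 CPM in luminal and 6075 to 7221 CPM in mixed libraries, and that of 9 luminal markers 2665 to 2966, 6056 to 8947 and 8298 to 9853 CPM. Most of the luminal sum of basal markers was Krt14 (mean 2114 CPM), while Krt5 averaged 17.7 CPM in luminal and 1842 CPM in basal libraries. Among the luminal markers Krt19 averaged 1336 CPM in luminal and 4537 CPM in mixed libraries. Krt8, Krt18, Muc1 and Cldn4 had lower means in mixed than in luminal libraries, and Kit, Elf5, Prlr and Esr1 higher ones.

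Collagen transcripts took the largest part of the RNA in basal aggregates. They made up 0.369%, 0.213% and 0.310% of counts in basal 1, 2 and 3, and 0.102%, 0.0690% and 0.0839% in luminal 1, 2 and 3. The mixed libraries lay between at 0.144%, 0.150% and 0.146%. The groups did not overlap, and an exact two-sided permutation test of 3 against 3 libraries cannot give a p below 0.1. Per exon length basal libraries stayed highest, at 0.073% to 0.162% of all length-scaled counts, but the mixed libraries (0.048% to 0.0548%) lay within the luminal range (0.0303% to 0.057%). In bulk RNA fewer cells of a type and less RNA per cell cannot be told apart, and this holds for each difference below. Within the collagen transcripts, counted per exon length, FACIT collagens supplied 39.4 to 46.3% in basal, 57.3 to 78.2% in luminal and 43.0 to 49.2% in mixed libraries. Most of the luminal part was the FACIT gene Col9a3. The 43 collagen genes other than Col9a3 supplied 70.8 to 79.0% in basal, 36.6 to 58.2% in luminal and 72.9 to 80.5% in mixed libraries. The multiplexin class, which is nearly all Col18a1, supplied 16.5 to 20.2% in basal, 2.81 to 6.10% in luminal and 12.1 to 13.8% in mixed libraries. Transmembrane collagens, which include Col17a1, supplied 11.2 to 13.6%, 0.719 to 1.96% and 12.4 to 16% in the same order. Fibril-forming chains supplied 2.64 to 3.67% in basal, 1.68 to 3.5% in luminal and 4.89 to 6.37% in mixed libraries. These are parts of a collagen total that itself differed. Of all length-scaled counts, fibril-forming chains averaged 0.00345% in basal, 0.00112% in luminal and 0.00277% in mixed libraries. FACIT collagens averaged 0.0542%, 0.0292% and 0.0231% in the same order.

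**Figure D1:**
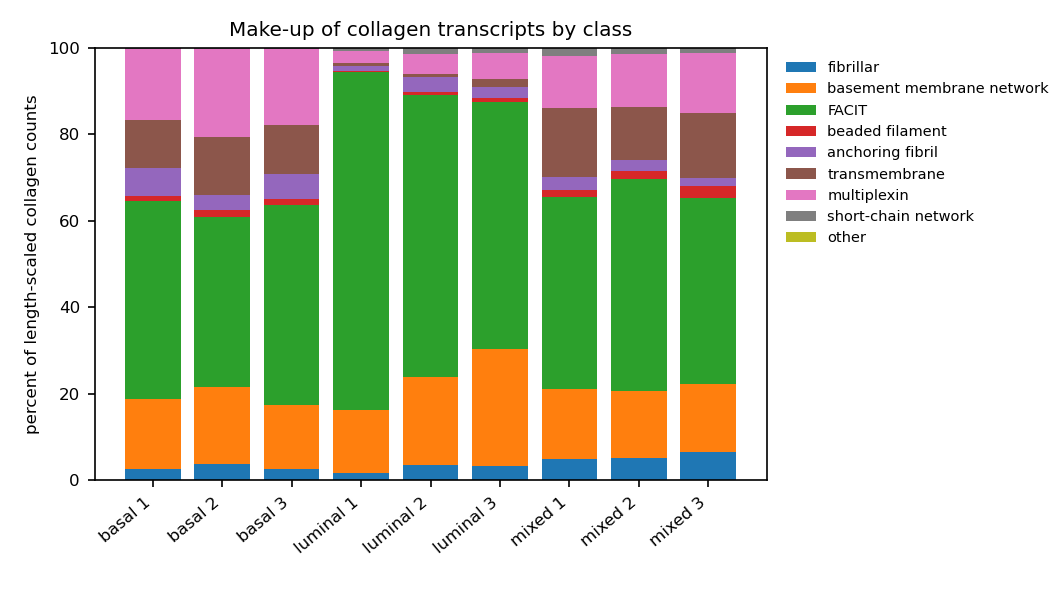
Share of each collagen class in the collagen transcripts of each library, in percent of counts divided by exon length; each bar is 1 library and the classes add to 100. FACIT collagens (green) take 57.3 to 78.2% in the luminal libraries, most of it Col9a3. The multiplexin (pink) and transmembrane (brown) parts are wider in the basal and mixed libraries.

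Ranked by CPM per kilobase of exon, the scale on which genes can be set beside each other, Col9a3 led in every kind of aggregate, with means of 118 in basal, 88.8 in luminal and 57.0 in mixed. Col9a3 encodes a chain of the FACIT collagen IX, best known from cartilage. It was followed in basal aggregates by Col18a1 (80.6 CPM per kilobase), Col17a1 (52.3) and Col9a2 (30.3). In luminal aggregates Col4a5 (19.4), Col9a2 (12.2) and Col4a6 (10.4) came next, and in mixed aggregates Col17a1 (35.7), Col18a1 (31.4) and Col9a2 (27). At a group mean of at least 5 CPM stood 22 collagen genes in basal, 16 in luminal and 21 in mixed aggregates.

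**Figure D2:**
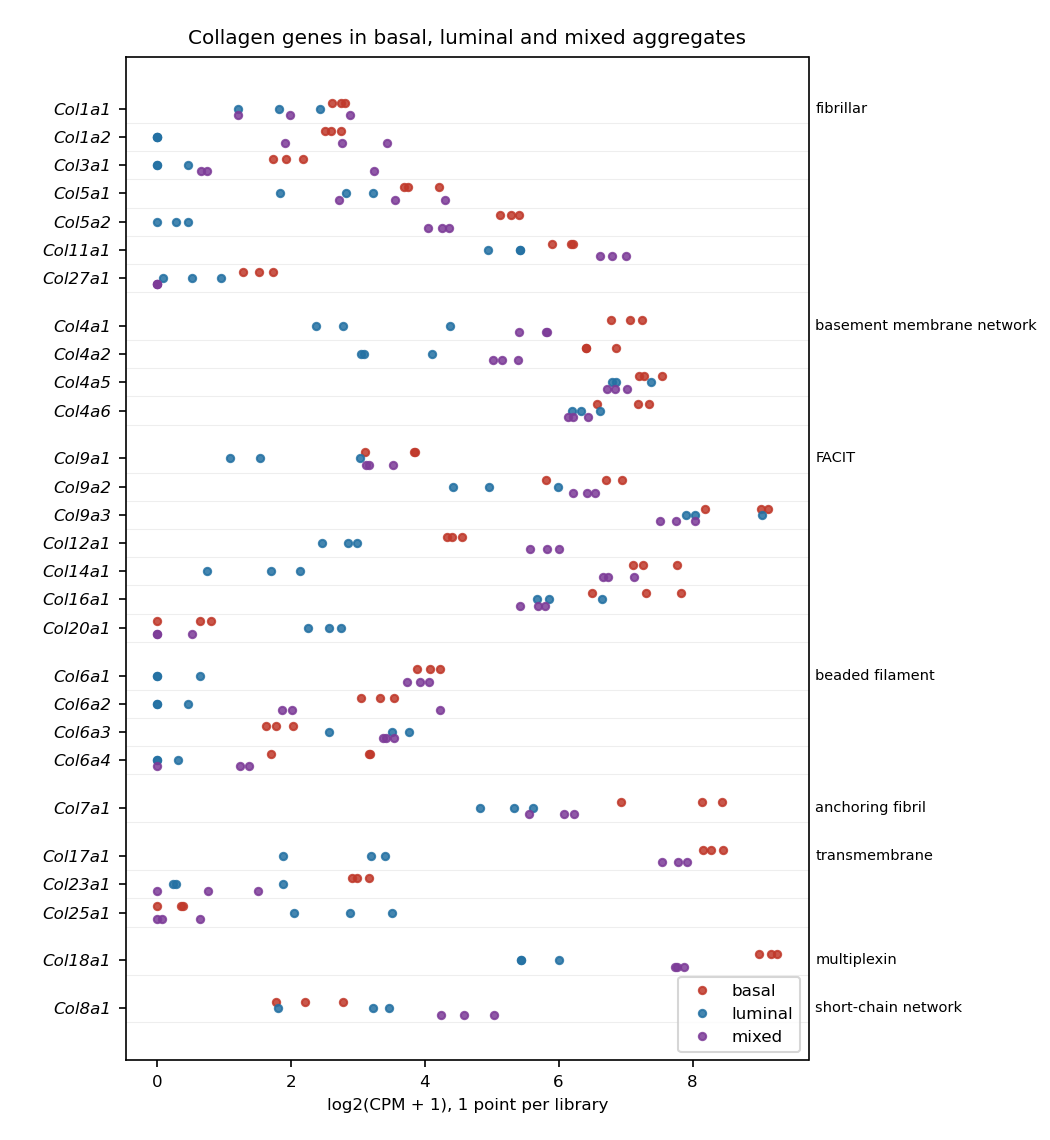
Level of the collagen genes named with a value in every library, as log2(CPM + 1), with 1 point per library and rows grouped by class; red is basal, blue luminal and purple mixed. Most blue points lie to the left of the red ones, while Col6a3, Col20a1 and Col25a1 show the opposite order and the purple points of Col12a1, Col11a1 and Col8a1 lie to the right of all others.

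Luminal aggregates had lower levels of most collagen genes than basal aggregates. Of the 34 tested genes 18 fell, 2 rose (Col6a3 and Col25a1) and 14 did not pass. Over all 18051 tested genes, 14.4% were called lower, 12.8% higher and 27.1% either way. Scaling by library size alone moved the calls over all genes from 2304 higher and 2595 lower to 1750 and 3249, and those over the collagen genes to 2 and 19. The median log2 difference was -1.31 over the tested collagen genes and -0.02 over all genes. For 19 of the 34 all 3 luminal libraries lay below all 3 basal ones, which held for 23.4% of all genes, and for 4 above them, against 23.2%. The fit with the series as a term passed 13 collagen genes as lower and 0 as higher, and of all genes 1227 and 1280. Of the 18 genes that fell, 11 passed under every alternative run: Col1a2, Col4a1, Col4a2, Col5a2, Col6a1, Col6a2, Col7a1, Col12a1, Col14a1, Col17a1 and Col18a1.

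Between mixed and basal aggregates fewer collagen genes differed. Col6a3, Col8a1, Col11a1 and Col12a1 rose and Col4a2, Col4a6, Col7a1, Col16a1, Col18a1 and Col27a1 fell in mixed aggregates, against 6.39% of all genes called higher, 7.33% called lower and 13.7% either way. Scaling by library size alone gave 3 collagen genes higher and 9 lower, and over all genes 951 and 1882 in place of 1153 and 1324. All 3 mixed libraries lay above all basal ones for 4 genes and below them for 13, which held for 14.5% and 18.7% of all genes. The median was -0.55 over the tested collagen genes and -0.07 over all genes. In the fit with the series 3 passed as higher (Col6a3, Col8a1 and Col12a1) and 1 as lower (Col18a1), and of all genes 529 and 324. Against luminal aggregates 14 rose and 3 fell in mixed aggregates, while 15.2% of all genes were called higher, 14.2% lower and 29.4% either way, and the median was 1.07 against -0.05. Mixed and luminal libraries did not overlap for 15 genes that were higher and 3 that were lower in mixed, with 25% and 26.1% over all genes. In the fit with the series 9 passed as higher and 0 as lower, and of all 18051 genes 370 and 121. The comparisons share libraries, so a gene's values in one are not independent of its values in another.

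**Figure D3:**
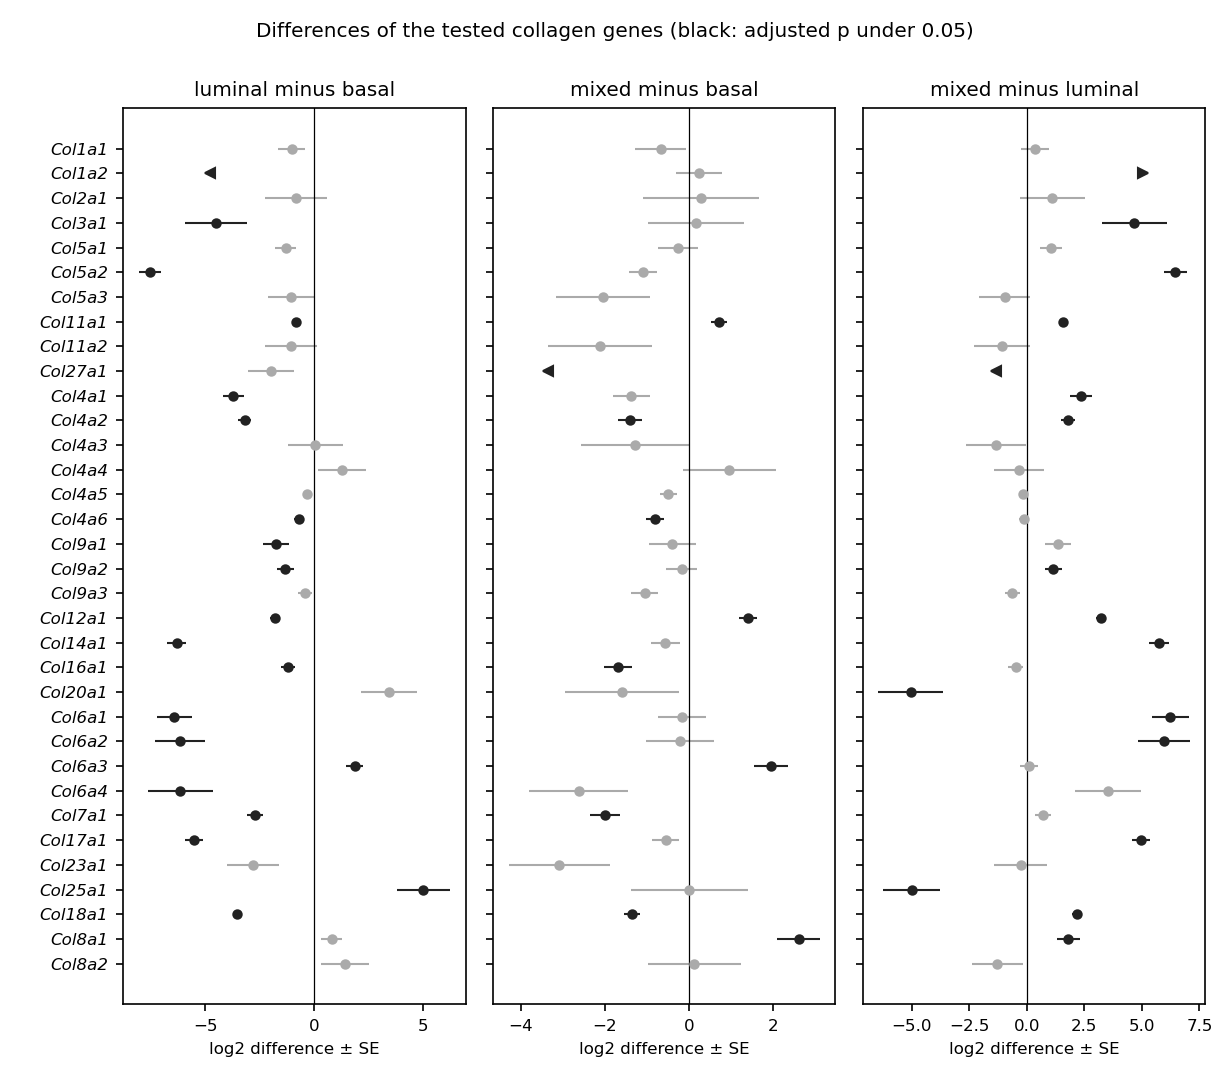
Log2 difference with its standard error for each of the 34 tested collagen genes in the 3 comparisons, with black points for adjusted p under 0.05 and grey points for the rest; triangles stand at the bound of genes with 0 counts in every library of a group. Black points lie mostly on the negative side in luminal minus basal (18 of 20) and on the positive side in mixed minus luminal (14 of 17). The horizontal scales differ between the panels.

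Among the basement membrane chains the pair Col4a1 and Col4a2 was lower in luminal aggregates, whereas the neighbouring pair on the X chromosome stayed abundant in all of them. Col4a1, whose product joins that of Col4a2 in the commonest type IV trimer, stood at 151, 133 and 109 CPM in basal, at 5.88, 4.21 and 19.9 CPM in luminal and at 55.4, 41.3 and 55.7 CPM in mixed libraries. All luminal libraries lay below all mixed ones and these below all basal ones, with luminal 3 above the other luminal libraries. The log2 difference was -3.72 ± 0.48 (SE) between luminal and basal (adjusted p = 0.00014), -1.37 ± 0.43 between mixed and basal (adjusted p = 0.059) and 2.35 ± 0.46 between mixed and luminal (adjusted p = 0.0038, and 0.18 with the series as a term). Col4a2 stood at 115, 83.9 and 84.0 CPM in basal, at 7.55, 7.30 and 16.2 CPM in luminal and at 34.4, 31.3 and 40.9 CPM in mixed libraries, in the same order without overlap. It fell by 3.19 ± 0.31 in luminal (adjusted p = 1.7e-05) and by 1.41 ± 0.29 in mixed aggregates (adjusted p = 0.01, and 0.099 with the series as a term). Its rise of 1.78 ± 0.30 in mixed over luminal aggregates (adjusted p = 0.0017) was 2.48 with the series as a term and did not pass (adjusted p = 0.079).

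Col4a5, a chain of the trimer that also holds the product of Col4a6, stood at 186, 146 and 154 CPM in basal, at 115, 109.8 and 165 CPM in luminal and at 113, 129 and 105 CPM in mixed libraries. Luminal and basal libraries overlapped, and the difference of -0.31 ± 0.19 did not pass (adjusted p = 0.27). Col4a6 stood at 163, 94.2 and 144 CPM in basal, at 97.2, 72.4 and 80.0 CPM in luminal and at 85.5, 73.2 and 69.8 CPM in mixed libraries. Basal 2 lay below luminal 1. Col4a6 was lower in luminal (-0.68 ± 0.21, adjusted p = 0.033) and in mixed aggregates (-0.81 ± 0.21, adjusted p = 0.028). Neither call passed with the series as a term (adjusted p = 0.081 and 0.48), and the call against luminal also ended without basal 1, basal 3, luminal 2 or luminal 3, and that against mixed without basal 1, basal 3 or any mixed library. The kidney-type chains Col4a3 and Col4a4 stayed at or below 2.09 CPM in every library and passed in no comparison.

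Within a library the ratio of chains does not depend on library scaling. Per exon length, Col4a5 exceeded Col4a1 by a log2 ratio of 0.45, 0.28 and 0.65 in basal, 4.43, 4.85 and 3.21 in luminal and 1.18, 1.79 and 1.06 in mixed libraries, so the groups lay apart. The log2 ratio of Col4a1 to Col4a2 was 0.22, 0.50 and 0.20 in basal, -0.53, -0.96 and 0.12 in luminal and 0.51, 0.23 and 0.27 in mixed libraries. The ratio of Col4a5 to Col4a6 overlapped between all groups, with means of 0.55 ± 0.29, 0.88 ± 0.40 and 0.85 ± 0.21 (SD, n = 3 each) in basal, luminal and mixed. Ratios of 12 chain pairs gave 36 comparisons, of which 18 had at least 10 counts of both genes in every library. By the exact two-sided permutation test the smallest p that 3 against 3 libraries can give is 0.1, and the smallest adjusted p over the 36 was 0.2.

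**Figure D4:**
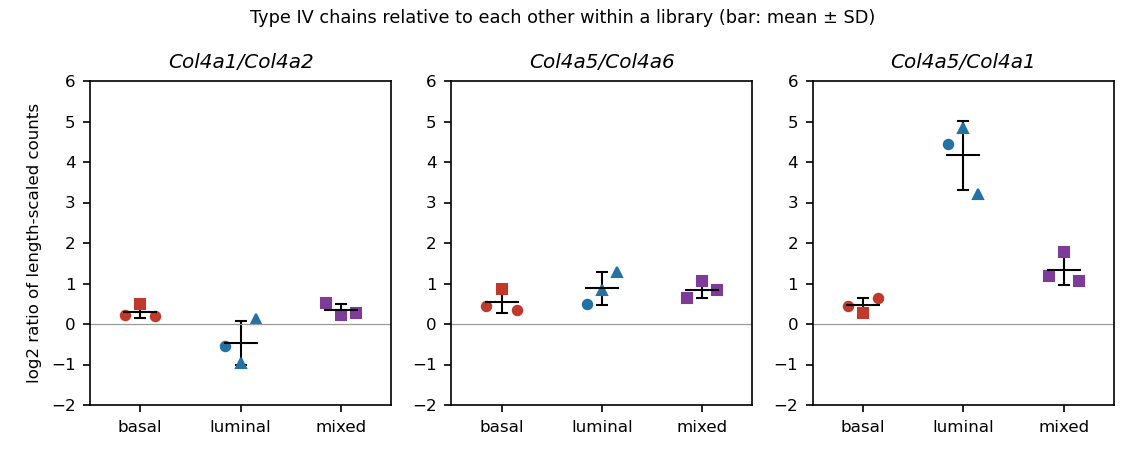
Log2 ratio of 2 type IV chains per exon length within each library, for Col4a1 to Col4a2, Col4a5 to Col4a6 and Col4a5 to Col4a1, with bars for the mean ± SD of 3 libraries and marker shapes for the column-name series (square A, circle B, triangle C). The Col4a5 to Col4a1 ratio is 3.21 to 4.85 in luminal libraries and 0.28 to 1.79 in all others.

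The collagens that tie basal cells to the basement membrane were also highest in basal aggregates. Col18a1, the core protein of a basement membrane proteoglycan and precursor of endostatin (chromosome 10, 76888012 to 77002382), stood at 616, 509 and 574 CPM in basal, at 42.5, 42.5 and 63.2 CPM in luminal and at 212, 216 and 234 CPM in mixed libraries. The groups lay far apart with little spread inside each. It fell by 3.52 ± 0.20 in luminal (adjusted p = 3.7e-07) and by 1.36 ± 0.19 in mixed aggregates (adjusted p = 0.00095), and with the series as a term the second value was -1.20 (adjusted p = 0.012). Col17a1, the transmembrane collagen of hemidesmosomes (chromosome 19, 47634783 to 47680533), stood at 349, 285 and 309 CPM in basal, at 8.2, 2.67 and 9.65 CPM in luminal and at 239.7, 185 and 219.6 CPM in mixed libraries. The mixed libraries lay below the basal ones without overlap, but the difference of -0.55 ± 0.33 did not pass (adjusted p = 0.29). Against luminal aggregates Col17a1 was higher in basal (the luminal minus basal difference was -5.52 ± 0.40, adjusted p = 1.9e-06) and in mixed aggregates (4.97 ± 0.39, adjusted p = 7.7e-06).

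Col7a1, the collagen of anchoring fibrils (chromosome 9, 108782654 to 108813943), stood at 347, 121 and 281 CPM in basal, at 27.2, 47.9 and 39.2 CPM in luminal and at 74.3, 66.4 and 46.0 CPM in mixed libraries. Basal 2, which shares series A with the mixed libraries, was well below basal 1 and 3, and luminal and mixed libraries overlapped. Col7a1 fell by 2.71 ± 0.37 in luminal aggregates (adjusted p = 0.0002). It was also lower in mixed than in basal aggregates (-2.01 ± 0.36, adjusted p = 0.0044), but with the series as a term the difference was -0.96 (adjusted p = 0.08). The difference between mixed and luminal of 0.71 ± 0.35 did not pass (adjusted p = 0.15), and with the series as a term it did (2.57, adjusted p = 0.016).

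Fibril-forming chains were low, apart from Col11a1 and Col5a2, and most had few counts in luminal libraries. Col5a2, a chain of the type V fibrils that start fibril assembly, stood at 41.4, 33.9 and 38.1 CPM in basal, at 0.216, 0 and 0.373 CPM in luminal and at 15.6, 18.1 and 19.6 CPM in mixed libraries. It was near the limit of detection in luminal aggregates and fell there by 7.55 ± 0.51 (adjusted p = 1.1e-06), while the mixed minus basal difference of -1.09 ± 0.34 did not pass (adjusted p = 0.055). Col5a1, its partner chain, stood at 12.4, 17.6 and 11.8 CPM in basal, at 2.59, 8.37 and 6.10 CPM in luminal and at 18.7, 10.7 and 5.61 CPM in mixed libraries, and passed in no comparison (luminal minus basal -1.30 ± 0.49, adjusted p = 0.072). The mixed libraries overlapped both pure groups.

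Both type I chains were lower in all luminal than in all basal libraries, and of them Col1a2 alone was called. Col1a2 stood at 5.73, 4.68 and 5.06 CPM in basal, at 0 counts in all 3 luminal libraries and at 2.75, 5.78 and 9.86 CPM in mixed libraries. With the limit of 3 counts per library, the mean of Col1a2 was at least 27.6-fold lower in luminal than in basal aggregates (adjusted p = 0.00011). The mixed mean was at least 32.8-fold higher than in luminal aggregates (adjusted p = 0.00019). These bounds hold for group means, and single libraries such as mixed 1 lay nearer to the limit. Col1a1, which supplies the other chain of the type I trimer, stood at 5.73, 5.13 and 6.04 CPM in basal, at 4.42, 1.31 and 2.55 CPM in luminal and at 1.32, 2.95 and 6.37 CPM in mixed libraries, and passed in no comparison (luminal minus basal -1.02 ± 0.61, adjusted p = 0.26). Col3a1, a fibril chain of soft tissue, stood at 3.55, 2.31 and 2.82 CPM in basal, at 0, 0 and 0.373 CPM in luminal and at 0.572, 0.677 and 8.5 CPM in mixed libraries. Mixed 3 held most of its counts in the mixed group. The calls of Col3a1 against luminal (-4.51 ± 1.41, adjusted p = 0.034, and 4.68 ± 1.42 for mixed, adjusted p = 0.03) ended with the series as a term (adjusted p = 0.13 and 0.36). The first call also ended without basal 1, basal 3, luminal 1 or luminal 2, and the second without luminal 1, luminal 2 or mixed 3.

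The summed level of stromal fibroblast markers was also lowest in luminal libraries, mainly through Fbln1. The 9 fibroblast markers, all detected, summed to 107 to 143 CPM in basal, 6.11 to 9.90 CPM in luminal and 43.9 to 47.5 CPM in mixed libraries. Most of the basal and mixed sums was Fbln1, which encodes fibulin 1, and without it the sums were 11.8 to 17.4, 5.87 to 8.71 and 14.4 to 14.8 CPM, so that basal and mixed overlapped. Fap had its highest mean in luminal libraries (0.919 CPM, against 0.351 in basal and 0.0806 in mixed). Of the 9, Pdgfrb was at 0 counts in all luminal libraries and none was at 0 throughout basal or mixed libraries. The part of these cells in the levels of Col1a2, Col3a1, Col5a2 and the type VI chains was not tested. The 6 endothelial markers stayed at or below 5.77 CPM in sum, with Emcn and Cldn5 at 0 counts in all mixed libraries, and the 3 adipocyte markers at or below 0.687 CPM. The 6 immune markers summed to 39.0 to 61.4 CPM in the 4 libraries of series A and to 1.38 to 2.74 CPM in the 5 others, with Cd74 and Lyz2 making up most of it in the mixed group. Their part in the differences of the mixed aggregates was not tested. The 5 pericyte markers summed to 74.1 to 93.5 CPM in basal, 48.1 to 69.4 CPM in luminal and 131 to 165 CPM in mixed libraries, nearly all of it Notch3, with Abcc9 at 0 counts throughout and Kcnj8 at 0 counts in the mixed libraries. The 4 Schwann cell markers summed to 338 to 383, 480 to 601 and 309 to 353 CPM in the same order, nearly all of it Sox10.

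Col11a1, a chain of type XI fibrils (chromosome 3, 113824189 to 114014367), was the most abundant fibrillar gene and was highest in mixed aggregates. It stood at 71.5, 73.1 and 58.7 CPM in basal, at 29.8, 41.8 and 41.7 CPM in luminal and at 97.3, 111 and 128 CPM in mixed libraries. The 3 groups did not overlap. Luminal was below basal (-0.84 ± 0.19, adjusted p = 0.0058) and mixed above basal (0.72 ± 0.19, adjusted p = 0.026) and above luminal (1.57 ± 0.19, adjusted p = 0.00019). The difference from basal did not pass with the series as a term (0.61, adjusted p = 0.19), with library size scaling, or without basal 1, basal 3, mixed 2 or mixed 3. Col27a1, a minor fibrillar gene, stood at 1.88, 2.31 and 1.44 CPM in basal, at 0.432, 0.0593 and 0.934 CPM in luminal and at 0 counts in all 3 mixed libraries. By group means it was at least 10.2-fold lower in mixed than in basal aggregates (adjusted p = 0.012). Against luminal aggregates the bound was 2.57-fold lower (adjusted p = 0.021), with luminal 2 itself below the limit of 3 counts. Both calls ended with the series as a term (adjusted p = 0.064 and 0.36), and the second also without luminal 3. Col2a1, Col5a3 and Col11a2 reached at most 3.45 CPM in a library and passed in no comparison.

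The type VI chains, which normally assemble together into beaded filaments, did not move together. Col6a1 (chromosome 10, 76544626 to 76562002) stood at 15.9, 17.7 and 13.7 CPM in basal, at 0, 0 and 0.560 CPM in luminal and at 12.3, 14.2 and 15.6 CPM in mixed libraries. Basal and mixed libraries overlapped, and Col6a1 was lower in luminal (-6.41 ± 0.81, adjusted p = 0.00011) and higher in mixed than in luminal aggregates (6.24 ± 0.80, adjusted p = 0.00029). Col6a2, which lies 85161 bases from it on the same strand, stood at 7.30, 10.7 and 9.03 CPM in basal, at 0, 0 and 0.373 CPM in luminal and at 3.03, 2.65 and 17.6 CPM in mixed libraries, with mixed 3 above the other mixed libraries. It fell by 6.16 ± 1.14 in luminal aggregates (adjusted p = 0.0018), and its rise of 5.95 ± 1.14 in mixed over luminal (adjusted p = 0.0034) ended with the series as a term (adjusted p = 0.19).

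Col6a3 (chromosome 1, 90693645 to 90771693), the largest type VI chain, went the other way. It stood at 2.43, 2.09 and 3.10 CPM in basal, at 4.91, 12.5 and 10.4 CPM in luminal and at 9.67, 9.35 and 10.7 CPM in mixed libraries. Every luminal and mixed library lay above every basal one. Col6a3 rose by 1.86 ± 0.40 in luminal (adjusted p = 0.0044) and by 1.96 ± 0.40 in mixed over basal aggregates (adjusted p = 0.009). In the fit with the series the luminal difference was 0.83 (adjusted p = 0.32), while the mixed difference of 2.24 passed (adjusted p = 0.037). Per exon length the log2 ratio of Col6a1 to Col6a3 was 4.15, 4.52 and 3.58 in basal and 1.80, 2.05 and 2.0 in mixed libraries, and in luminal 1 and 2 Col6a1 was at 0 counts. Col6a4 stood at 8.01, 2.26 and 8.11 CPM in basal, at 0, 0 and 0.249 CPM in luminal and at 1.37, 0 and 1.58 CPM in mixed libraries, with basal 2 nearest to the mixed libraries. It fell in luminal aggregates (-6.14 ± 1.49, adjusted p = 0.0094, and 0.075 with the series as a term).

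Among the FACIT collagens Col12a1 and Col14a1, both of which coat type I fibrils and were lower in luminal aggregates, parted in the mixture. Col12a1 (chromosome 9, 79506273 to 79626113) stood at 22.5, 19.2 and 20.3 CPM in basal, at 6.96, 6.23 and 4.54 CPM in luminal and at 63.1, 55.9 and 46.6 CPM in mixed libraries. The lowest mixed library lay above the highest basal one and all luminal libraries lay below both. Its log2 difference was -1.80 ± 0.22 between luminal and basal (adjusted p = 9.9e-05), 1.42 ± 0.21 between mixed and basal (adjusted p = 0.0017) and 3.22 ± 0.23 between mixed and luminal (adjusted p = 4.9e-06), and these 3 calls passed under every alternative run. Col14a1 (chromosome 15, 55171146 to 55384199) stood at 153, 217 and 137 CPM in basal, at 3.40, 2.26 and 0.685 CPM in luminal and at 106, 100.1 and 138 CPM in mixed libraries. Mixed 3 reached into the basal range, and the mixed minus basal difference of -0.56 ± 0.34 did not pass (adjusted p = 0.3), while Col14a1 fell by 6.30 ± 0.44 in luminal aggregates (adjusted p = 1.5e-06) and rose by 5.74 ± 0.43 in mixed over luminal (adjusted p = 5.9e-06).

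The 3 chains of collagen IX differed in level and, between mixed and luminal aggregates, in the sign of their fitted differences (1.35 for Col9a1, 1.15 for Col9a2 and -0.64 for Col9a3, of which that of Col9a2 passed). Col9a3 (chromosome 2, 180239583 to 180263982) stood at 556, 289 and 521 CPM in basal, at 526, 263 and 238 CPM in luminal and at 215, 263 and 181 CPM in mixed libraries. The 2 series B basal libraries and luminal 1, also of series B, were the high ones, and no comparison passed (mixed minus basal -1.05 ± 0.33, adjusted p = 0.053, and -0.40 with adjusted p = 0.38 with the series as a term). Of its exon bases 6.07% are shared with Tcfl5, and since reads were counted without strand those reads cannot be assigned. Col9a2 stood at 123, 55.1 and 104 CPM in basal, at 62.4, 30.1 and 20.4 CPM in luminal and at 85, 92.1 and 73.4 CPM in mixed libraries. Its calls for luminal minus basal (-1.32 ± 0.38, adjusted p = 0.024) and mixed minus luminal (1.15 ± 0.38, adjusted p = 0.041) ended with the series as a term (adjusted p = 0.081 and 0.11). Leaving out basal 1, basal 3, luminal 2 or luminal 3 ended the first, and leaving out basal 3, luminal 2, luminal 3 or any mixed library the second. Col9a1 stood at 13.3, 13.4 and 7.65 CPM in basal, at 7.18, 1.90 and 1.12 CPM in luminal and at 7.67, 7.94 and 10.5 CPM in mixed libraries. It was lower in luminal aggregates (-1.75 ± 0.58, adjusted p = 0.044), but not with the series as a term (-0.55, adjusted p = 0.64), nor without any 1 of basal 1 to 3, luminal 2, luminal 3, mixed 1 or mixed 2.

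Col16a1, a FACIT collagen found near basement membranes, stood at 226, 89.0 and 157 CPM in basal, at 56.9, 50.1 and 98.8 CPM in luminal and at 50.8, 41.8 and 54.7 CPM in mixed libraries. Basal 2 was again the lowest basal library and lay below luminal 3. Col16a1 fell by 1.20 ± 0.33 in luminal (adjusted p = 0.019, ended without basal 1, luminal 1 or luminal 2) and by 1.68 ± 0.33 in mixed aggregates (adjusted p = 0.0082). Against basal 2 alone in its series, the mixed difference was -0.86 and did not pass (adjusted p = 0.22). Col20a1, a FACIT gene with little expression outside luminal aggregates, stood at 0.558, 0 and 0.747 CPM in basal, at 4.91, 3.80 and 5.73 CPM in luminal and at 0, 0.431 and 0 CPM in mixed libraries. The luminal libraries lay above all others, with a luminal minus basal difference of 3.45 ± 1.27 that did not pass (adjusted p = 0.066) and a mixed minus luminal difference of -5.04 ± 1.41 that did (adjusted p = 0.021). The latter turned to 1.47 with the series as a term (adjusted p = 0.91) and did not pass without luminal 1, luminal 3 or mixed 1.

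Of the remaining classes, the short-chain collagen gene Col8a1 (chromosome 16, 57444621 to 57575100) was highest in mixed aggregates. It stood at 3.65, 5.84 and 2.41 CPM in basal, at 2.48, 10.0 and 8.40 CPM in luminal and at 31.9, 23.1 and 17.9 CPM in mixed libraries. Basal and luminal libraries overlapped, and all mixed libraries lay above them. Col8a1 rose by 2.61 ± 0.51 in mixed over basal (adjusted p = 0.0073, and 0.049 with the series as a term) and by 1.80 ± 0.49 over luminal aggregates (adjusted p = 0.019, and 0.15 with the series as a term or 0.066 without mixed 1). The transmembrane collagen gene Col25a1 stood at 0.304, 0 and 0.287 CPM in basal, at 3.13, 6.35 and 10.4 CPM in luminal and at 0.0572, 0.554 and 0 CPM in mixed libraries. It was higher in luminal than in basal (5.02 ± 1.23, adjusted p = 0.0099) and lower in mixed than in luminal aggregates (-5.01 ± 1.23, adjusted p = 0.012). Neither call passed without luminal 3 or with the series as a term, where the values were 3.37 (adjusted p = 0.15) and 1.49 (adjusted p = 0.9). Col23a1, another transmembrane chain, stood at 8.01, 6.56 and 6.90 CPM in basal, at 0.216, 0.178 and 2.68 CPM in luminal and at 0.687, 1.85 and 0 CPM in mixed libraries. All luminal and mixed libraries lay below the basal ones, but neither -2.81 ± 1.19 nor -3.08 ± 1.21 passed (adjusted p = 0.11 in both).

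The mixture did not take up a common place between its components. On a scale where the luminal mean is 0% and the basal mean 100%, the 18 genes that were lower in luminal than in basal aggregates had a median of 66.6% in mixed aggregates, and all 2595 such genes had a median of 55%. Of the 18, 2 lay below 0%, 6 from 0 to 50%, 6 from 50 to 100% and 4 above 100%. Of all 2595 such genes 170 lay below 0%, 1025 from 0 to 50%, 877 from 50 to 100% and 523 above 100%. The spread of places was thus not particular to collagen genes. Col7a1 (11.4%), Col4a2 (30.04%), Col18a1 (33.2%) and Col4a1 (33.8%) lay nearer to luminal aggregates. The place of Col7a1 depended on the series, since with it as a term mixed minus basal was -0.96 and mixed minus luminal 2.57. Col14a1 (67.4%), Col17a1 (67.6%) and Col6a1 (88.7%) lay nearer to basal ones. Col11a1 (247%) and Col12a1 (334%) lay beyond the basal mean, and Col16a1 (-21.9%) and Col4a6 (-13.9%) below the luminal mean. With the series as a term the mixed minus luminal difference was positive for Col16a1 (0.90, adjusted p = 0.58) and for Col4a6 (0.35, adjusted p = 0.74), so this side turned. These percentages have no test of their own. That of Col18a1 ran from 31.4% to 35.7% over the 3 mixed libraries and that of Col6a2 from 28.4% to 197%.

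Col12a1 was the collagen gene called above both pure groups when both comparisons had to pass jointly (adjusted p = 0.042). Over all genes 0.0499% were called above both, 9 genes in all, and 0.0388% below both, among which was 0 of the collagen genes. By DESeq2's Wald test 3 collagen genes were above both and 1 below, and of all genes 145 and 477. Over all alternatives the adjusted p of this joint call ran from 1.09e-06 to 0.55. It ended with library size scaling, with DESeq2 size factors, with the title number as a block, with the series as a term (0.55), and when any 1 library other than basal 2 was left out (0.05 to 0.23). Col11a1 and Col8a1 had the same order of groups without passing jointly (adjusted p = 0.17 and 0.18), and both passed without basal 2 (adjusted p = 0.048 and 0.044), by DESeq2 and without a filter. In these 3 settings the genes above both numbered 580, 145 and 290 over all genes, in place of 9.

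**Figure D5:**
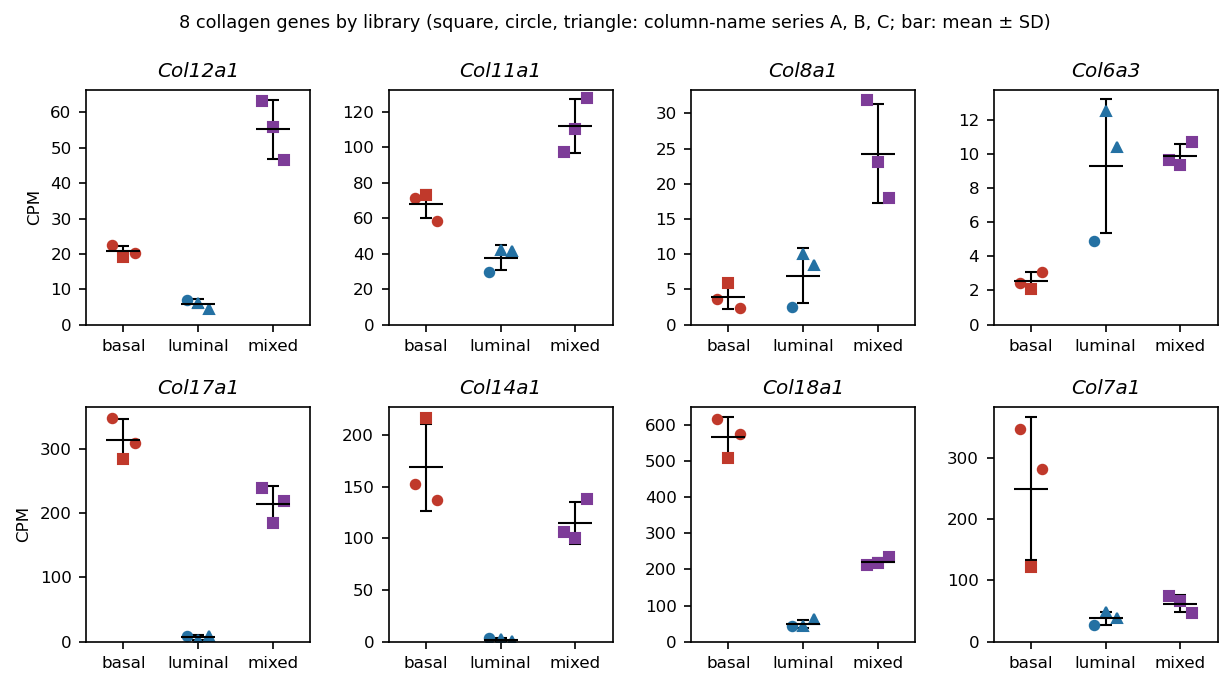
CPM of 8 collagen genes in each library, with bars for the mean ± SD of 3 libraries and marker shapes for the column-name series (square A, circle B, triangle C). In Col12a1, Col11a1 and Col8a1 the mixed libraries lie above all others, in Col18a1 they lie between the pure groups, and in Col7a1 the basal library of series A (121 CPM) lies apart from the other basal libraries (281 and 347 CPM).

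Genes that act on collagen changed in both directions. Of 43 genes listed for collagen synthesis, processing, crosslinking and receptors 39 were tested, and 14 fell and 5 rose in luminal against basal aggregates (median -0.89), with 14.4% and 12.8% over all genes. The fit with the series passed 8 as lower and 2 as higher. The largest falls were those of the lysyl oxidase gene Loxl3 (-6.17 ± 0.65), the collagen receptor genes Ddr2 (-4.80 ± 1.42) and Itga1 (-3.71 ± 1.00), and the galactosyltransferase gene Colgalt2 (-2.76 ± 0.80), of which Loxl3 passed with the series as a term. In luminal libraries Ddr2 stood at 0.216, 0 and 0.124 CPM and Itga1 at 0.216, 0 and 0.934 CPM. These levels are at or near the limit of 3 counts, so the sizes of their falls are uncertain. The largest rises were those of the lysyl oxidase gene Loxl4 (1.99 ± 0.43), Creb3l1 (1.97 ± 0.61), a transcription factor for secretory genes, the prolyl hydroxylase subunit gene P4ha2 (1.57 ± 0.32) and Colgalt1 (1.07 ± 0.20). Of these, Creb3l1 and Colgalt1 passed with the series as a term. Serpinh1, the collagen chaperone HSP47, stood at 583 ± 39.9 CPM in basal, 168 ± 42.8 CPM in luminal and 237 ± 30.5 CPM in mixed aggregates (SD, n = 3 each).

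In mixed against basal aggregates 6 of the 39 fell and 1 rose (median -0.34), with 7.33% and 6.39% over all genes. The largest falls were those of Loxl3 (-3.90 ± 0.56), the procollagen peptidase gene Adamts2 (-2.10 ± 0.40), Serpinh1 (-1.30 ± 0.20) and the lysyl hydroxylase gene Plod2 (-1.07 ± 0.26), of which Loxl3 and Serpinh1 passed with the series as a term. The gene that rose was Pxdn, peroxidasin, which forms the sulfilimine crosslink of type IV collagen, at 192 ± 18 CPM in basal, 129 ± 22 CPM in luminal and 320.4 ± 14.5 CPM in mixed aggregates. Its rise of 0.74 ± 0.17 did not pass with the series as a term (adjusted p = 0.12). In mixed against luminal aggregates 9 of the 39 rose and 6 fell (median 0.51), with 15.2% and 14.2% over all genes. The largest fitted rises were those of the lysyl oxidase gene Lox, which stood at 0.018 ± 0.0312 CPM in luminal, below the limit of 3 counts, and at 2.02 ± 1.70 CPM in mixed aggregates (SD, n = 3 each), the integrin gene Itga11 (3.34 ± 0.83), Loxl3 (2.27 ± 0.59) and Adamts3 (1.70 ± 0.55). The largest falls were those of Loxl4 (-1.92 ± 0.43), P4ha2 (-1.32 ± 0.32), Colgalt1 (-1.11 ± 0.20) and Plod1 (-1.0 ± 0.20). In the fit with the series 0 of the 39 passed in this comparison.

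The other members were barely detected. Col6a5, Col6a6, Col10a1, Col13a1, Col15a1, Col19a1, Col22a1, Col24a1, Col26a1 and Col28a1 were not tested, and the highest count of any of them in a library was 30. Of the 44 genes 19 had counts in every library. Col8a2 reached 4.10 CPM in luminal 1 and 1.89 CPM or less in the basal and mixed libraries, and passed in no comparison. A count of 0 allows a level of up to 0.152 to 0.187 CPM, depending on the library.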

How the data were processed

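RNA of 9 libraries was prepared with a small-input kit and a stranded mRNA kit, per the labels' protocols. The deposited values are raw, whole-number counts for each gene name. Per the file headers the authors counted read pairs over exons with featureCounts 2.0.1, without strand and without reads of several alignments, so reads of overlapping or near-identical genes are lost or shared. The submitters' processing notes name Trim Galore, Subread and mm39, while the sources used here give neither aligner settings nor the annotation release. The tests used edgeR 4.0.16 under R 4.3.3: filterByExpr by group, TMM scaling, and 1 quasi-likelihood fit of 9 libraries (robust, 6 residual degrees of freedom). Tests were two-sided, with Benjamini-Hochberg adjustment over 18051 genes and a threshold of 0.05. For genes outside both pure groups the larger p was adjusted. CPM carry no pseudocount, and ratios of chains have 0.5 counts added. A bound sets the mean of the other group against 3 counts in the library with the highest such limit. CPM per kilobase uses the table's gene lengths, which count each exon base of a gene.

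Members with a group mean of at least 5 CPM, or called with a group mean of at least 1 CPM, are given in every library, and of the other genes listed for collagen synthesis up to 4 per direction and comparison. The members and lists were chosen with earlier results of these data known. Alternatives were library size scaling, DESeq2 size factors, DESeq2 1.42.0, limma-voom (limma 3.58.1), a stricter filter and none, a null of a 1.5-fold change, a fit of the 2 compared groups alone, the title number as a block, the column-name series (4 residual degrees of freedom) and each library left out. The test was checked on simulated data.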

Additional observations from a re-analysis of the deposited data

How the results depend on the processing

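With the column-name series as a term, luminal minus basal had 0 higher collagen genes, mixed minus basal 1 lower, and mixed minus luminal 9 higher and 0 lower. Over all genes the same fit called 1280 higher in luminal minus basal and 324 lower in mixed minus basal. In mixed minus luminal it called 370 higher and 121 lower. There Col20a1 and Col25a1 turned from lower to 1.47 and 1.49 in mixed minus luminal without passing. Collagen genes lower in mixed than in basal numbered 10 by DESeq2 and by limma-voom and 12 without a filter. Over all genes 2340, 1653 and 2190 (of 33929 tested without a filter) were lower in these settings, in place of 1324. Collagen genes above both pure groups numbered 0 with library size scaling, DESeq2 size factors, the replicate block and the series. They numbered 3 by DESeq2 and without a filter, and those below both 1 by DESeq2 and 2 without a filter. Over all genes those above both numbered 6, 6, 7, 0, 145 and 290 in the same order of settings. Those below both numbered 477 by DESeq2 and 600 without a filter. The cause of these changes was not tested. Scaling by library size alone put the median of all genes at -0.17 in luminal minus basal and at -0.22 in mixed minus basal. A null of a 1.5-fold change ended the calls of Col3a1, Col4a6, Col9a1, Col9a2, Col11a1 and Col16a1 in luminal minus basal, of Col4a6 and Col11a1 in mixed minus basal, and of Col3a1, Col8a1 and Col9a2 in mixed minus luminal. Fits of the compared groups alone ended those of Col4a6 against basal and of Col9a1 in luminal. Col4a1, Col5a2 and Col9a3, which did not pass in mixed minus basal, passed there by DESeq2, by limma-voom, without a filter and with library size scaling. Mixed minus luminal also lost Col3a1 and Col27a1 by limma-voom, Col27a1 with the replicate block and Col9a2 with library size scaling.

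Same-numbered libraries did not deviate together (r from -0.166 to 0.201), so no pairing by number was seen. Most of these pairs come from different series, so the check cannot exclude a pairing. The replicate block gave 2 collagen genes higher and 18 lower for luminal minus basal, 4 and 7 for mixed minus basal, and 14 and 2 for mixed minus luminal. Over all genes it gave 2154 and 2394, 1119 and 1008, and 2695 and 2311 in the same order. Leaving out each library in turn gave 1 to 3 collagen genes higher and 13 to 20 lower in luminal minus basal, 3 to 4 and 5 to 9 in mixed minus basal, 12 to 15 and 0 to 4 in mixed minus luminal, and 0 to 3 above and 0 below both. Over all genes it gave 1642 to 2533 and 1907 to 2860, 558 to 2627 and 405 to 2493, and 1550 to 3400 and 1417 to 3374. Those above both then numbered 1 to 580 and those below both 0 to 671. Without luminal 3, 1 collagen gene was higher in luminal than in basal and 0 were lower in mixed than in luminal, against 1751 and 1417 over all genes. Without basal 2, 3 collagen genes were above both, and over all genes 580 in place of 9.

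The collagen share of counts per exon length was 0.121% in basal, 0.0427% in luminal and 0.0506% in mixed aggregates. Without the most abundant collagen gene the share of counts was 0.0515% in luminal and 0.125% in mixed.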
